A study of Mus musculus with 4 samples.

Results

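The hippocampal library labelled Ogg1 knockout (Ogg1 KO) was compared with the wild-type library (WT), 2 of the 4 libraries of the series, gene by gene. Their tables were joined on gene identifier and a gene absent from a table was taken as 0 reads. Of 18492 genes listed in any library, 13186 had a mean of at least 1 RPKM over the 4 libraries and were compared. RPKM is the read number scaled by gene length, in kilobases, and by library total, in megareads. Each gene was described by its read counts and by the log2 ratio of RPKM after adding 1 RPKM to both values, which understates the difference of a weakly expressed gene. A fold sets the shares of the library totals against each other, with its exact 95% interval in brackets. Such an interval covers counting error only. Each genotype has 1 library and no replicate, so no difference was tested, and each value compares these libraries and not the genotypes.

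The mice were C57BL/6 animals aged 6 months, and RNA was taken from the hippocampus. WT mice carried both genes, Ogg1 KO mice the genotype Ogg1-/-, Mutyh KO mice Mutyh-/-, and double knockout mice (DKO) both deficiencies, labelled Ogg-/- Mutyh-/-. The deleted exons, the origin of the alleles, and the sex and number of animals behind a library are not given in the sources used here. The 4 libraries held from 17.02 M (megareads) to 18.2 M reads. They listed between 17398 and 17587 genes, and the median compared gene had between 93.13% and 93.98% of its length covered by reads. Of all reads, ribosomal RNA made up 0.351% in the library labelled Ogg1 KO, 0.733% in WT, and 1.37% and 1.48% in Mutyh KO and DKO.

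Guanine is the base most easily oxidised, and its product 8-oxoguanine can pair with adenine and so leave a mutation at the next replication. Ogg1 encodes the glycosylase that cuts 8-oxoguanine out of DNA when it faces cytosine. Mutyh encodes the glycosylase that removes an adenine placed opposite it, and Nudt1 the enzyme that clears the oxidised nucleotide from the pool. In the hippocampus, which forms and stores memories and keeps adding granule neurons to the dentate gyrus, the enzymes act in cells with a high demand for oxygen.

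Ogg1 itself had 94 reads in WT and 130 in the library labelled Ogg1 KO, with 81 in Mutyh KO and 103 in DKO. The read total therefore did not separate the libraries by their labels, and it was 1.47-fold the WT value (1.12 to 1.94) in the library labelled Ogg1 KO. Coverage, the share of the gene's length with reads, did separate them. It was 47.17% and 46.4% in the libraries labelled Ogg1 KO and DKO, against 86.7% and 81.49% in WT and Mutyh KO. Among 12347 genes with at least 30 reads in both libraries and read totals within 1.5-fold, the difference of -39.53 points was the largest in coverage in either direction. The median gene differed by -0.23 points, the 5th to 95th percentiles ran from -7.307 to 5.73, and 15 genes (0.121%) differed by 20 points or more. Every direction given for the library labelled Ogg1 KO rests on that label.

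**Figure D1:**
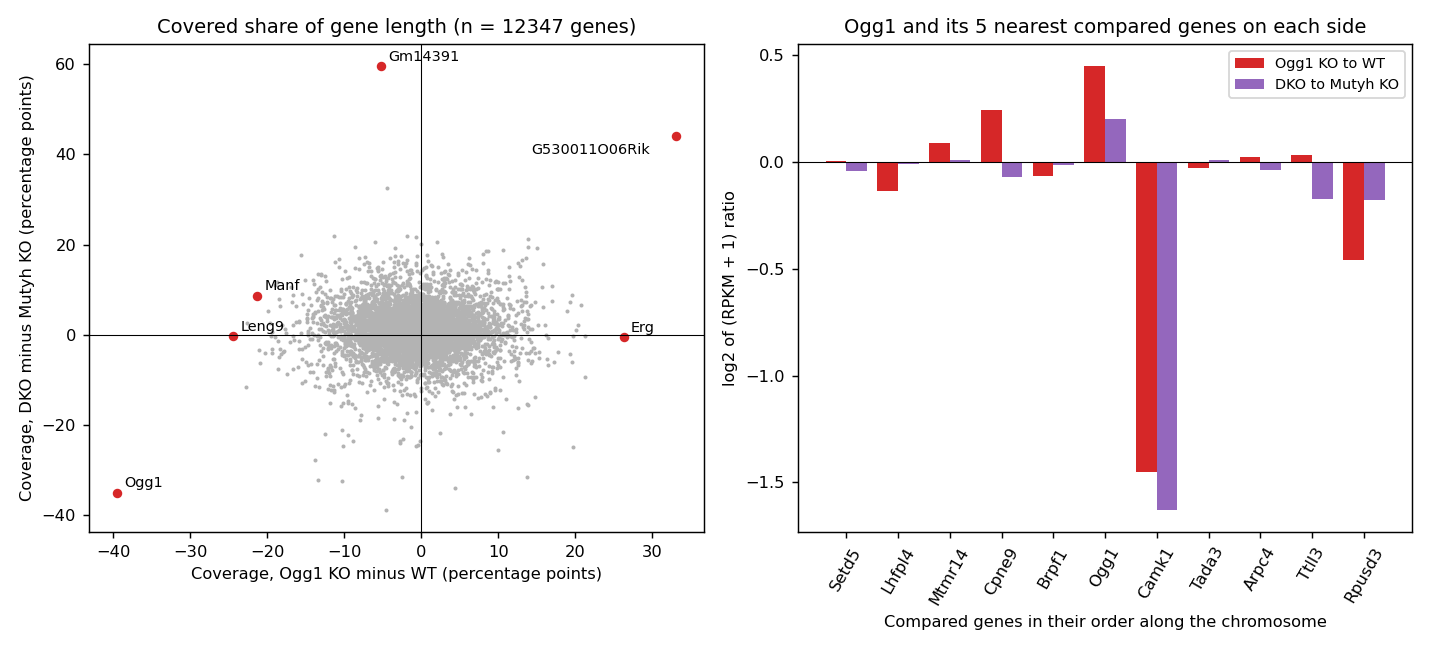
Left, the difference in coverage (percentage points) between the Ogg1 KO and WT libraries against that between DKO and Mutyh KO, 1 point per gene. Ogg1 lies at -39.53 and -35.09 points and G530011O06Rik at 33.02 and 44.12. Right, log2 ratios of Ogg1 and of the 5 compared genes on each side in chromosome order, as bars from 0 for Ogg1 KO to WT and DKO to Mutyh KO. Camk1 stands at -1.45 and -1.63.

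Camk1, a calcium- and calmodulin-dependent protein kinase, was the gene next to Ogg1 that differed most. WT and Mutyh KO had 510 and 503 reads of it, the libraries labelled Ogg1 KO and DKO 160 and 155. Both libraries labelled as lacking Ogg1 thus lay below both others. Camk1 was at 0.334-fold the WT value (0.278 to 0.400), a log2 ratio of -1.45, and its coverage was 69.8% against 95.89%. In the RefSeq annotation of GRCm38 the Ogg1 and Camk1 genes overlap, and without knowledge of strand their shared reads cannot be told apart. Of the other 9 nearest compared genes, Setd5, Lhfpl4, Mtmr14, Cpne9 and Brpf1 on one side had log2 ratios of 0.01, -0.14, 0.09, 0.24 and -0.07. Tada3, Arpc4 and Ttll3 on the other side stood at -0.03, 0.02 and 0.03, and Setd5 and Arpc4 turned to -0.03 and -0.01 under scaling to the median ratio. Rpusd3, a pseudouridine synthase of mitochondria, stood at -0.46, with 208 reads in WT and 136, 169 and 156 in the library labelled Ogg1 KO, Mutyh KO and DKO. Over 25 compared genes on each side, 18 were higher and 32 lower, with a median of -0.05, and Camk1 was the 1 gene past 1.5-fold.

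Nudt1 had 24 reads in WT and 28 in the library labelled Ogg1 KO, with 24 and 33 in Mutyh KO and DKO. Mutyh had a mean below 1 RPKM and was not compared. The list of enzymes that deal with oxidised and damaged bases held 11 compared genes, 6 higher and 5 lower, with a median of 0.08 and no member past 1.5-fold. Mbd4, a thymine glycosylase, had 172 reads in WT and 235 in the library labelled Ogg1 KO (log2 ratio 0.41), and Neil1, which also removes oxidised bases, had 82 and 70 (-0.11). The steps of base excision repair after the glycosylases had a median of 0.00 over 21 genes, 11 higher and 10 lower. Xrcc1, the scaffold of single-strand break repair, stood at -0.25 and the ligase Lig3 at 0.22. Targets of p53 had a median of -0.03 over 21 genes, and genes of Nrf2 and glutathione 0.01 over 30.

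Across all 13186 genes the 2 libraries lay close together. The median log2 ratio was 0.02, 54.6% of genes were higher, 45.4% lower, and 97.8% lay within 1.5-fold. The 2-fold line was passed by 73 genes above WT (0.554%) and 28 below it (0.212%), together 101 genes (0.766%). At 1.5-fold the numbers were 207 (1.57%) and 87 (0.66%). Genes known from choroid plexus, liver, heart and skeletal muscle, intestine or the sex chromosomes, 99 of those compared, gave 40 of the 73 and 13 of the 28. All 47 compared choroid plexus genes were higher, and that list took 0.635% of the reads against 0.102% in WT. Of the 59 liver genes, 22 had no read in the library labelled Ogg1 KO and 3 had none in WT. What follows mainly concerns the other 13087 genes, where 33 (0.252%) passed 2-fold upward and 15 (0.115%) downward. Lists were matched by the deposited symbols, so 1110059M19Rik, which is Prr32 of the choroid plexus list in RefSeq, stayed among the 33. Counts and medians of gene lists and families take in all their compared genes, unless stated.

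**Figure D2:**
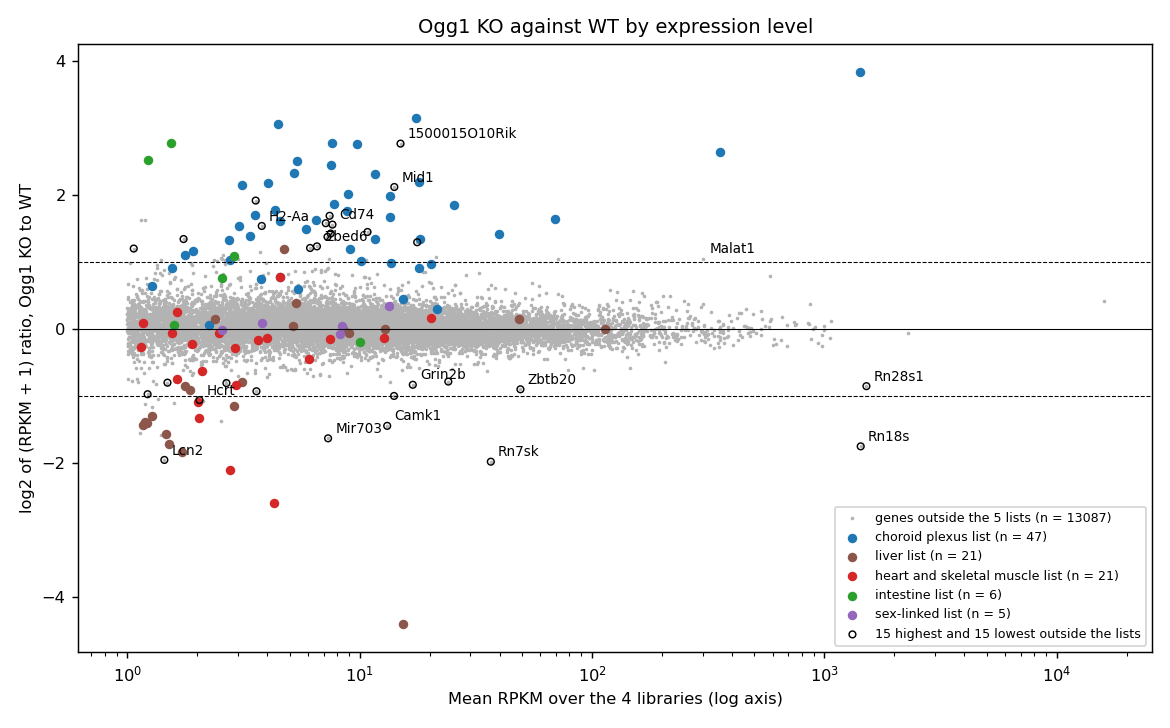
Log2 ratio of Ogg1 KO to WT against the mean RPKM over the 4 libraries (log axis), 1 point per gene. Colours mark the 5 gene lists named in the legend, open circles the 15 highest and 15 lowest genes outside them, and dashed lines 2-fold. The grey cloud is widest at the left, at 1 to 3 RPKM, and 520 genes lie at 100 RPKM or more.

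Outside the lists the spread of the log2 ratios narrowed from an SD over genes of 0.28 at 1 to 3 RPKM to 0.17 at 30 to 100 RPKM, and was 0.20 at 100 RPKM or more. Over all compared genes, 4.92% of 2357 genes between 1 and 3 RPKM lay past 1.5-fold, and the interval of a typical gene reached a factor of 1.39 to either side. Between 3 and 10 RPKM the share was 2.44% of 4255 genes, between 10 and 30 RPKM 1.28% of 4142, and between 30 and 100 RPKM 0.732% of 1912. At 100 RPKM or more it was 1.35% of 520 genes, among them the ribosomal RNA genes Rn18s and Rn28s1. The share of genes whose interval excluded 1 went the other way, from 21.1% in the lowest of these classes to 76.5% in the highest, and was 37.5% over all genes. An abundant gene thus had an interval clear of 1 at a smaller ratio, and such an interval says nothing of variation between animals. Medians ran from 0.05 in the lowest class to -0.02 in the highest. By gene length outside the lists, the 539 genes of 8000 bases or more had a median of 0.11 with 73.7% higher, against medians of 0.01 to 0.05 in the shorter classes.

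Reads set a limit among the weak genes. Of the 15 genes at least 2-fold lower, 10 had fewer than 30 reads in WT and 7 had intervals excluding 1. Of the 33 higher genes, 3 had fewer than 30 reads in the library labelled Ogg1 KO and 30 had intervals excluding 1. The short RNA genes Mir199b, Mir3074-1, Snora17, AF357399 and Snord32a had between 2 and 4 reads in WT and 0 or 1 in the library labelled Ogg1 KO, so their differences were not detectable at this depth.

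**Figure D3:**
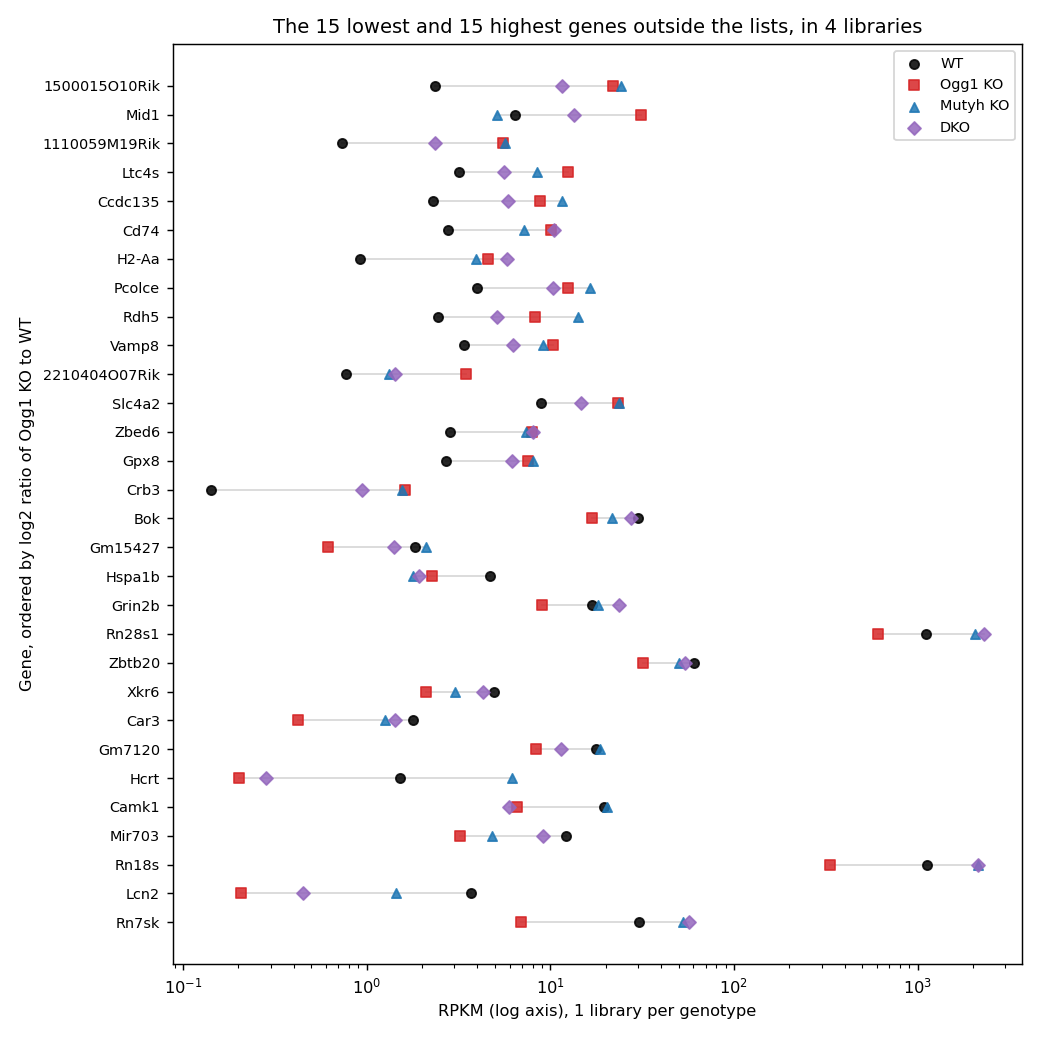
RPKM (log axis) in each of the 4 libraries for the 15 highest and 15 lowest genes outside the lists whose intervals exclude 1, ordered by log2 ratio. Among them 1110059M19Rik is Prr32 in RefSeq, a gene of the choroid plexus list. Camk1 and Mid1 separate the libraries labelled Ogg1 KO and DKO from the others, and most of the upper genes are lowest in WT.

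Mid1, a ubiquitin ligase of microtubules encoded on the X chromosome, was among the genes furthest above WT. WT and Mutyh KO had 465 and 348 reads of it, and the libraries labelled Ogg1 KO and DKO 2120 and 978. Both libraries labelled as lacking Ogg1 were above both others, by 4.85-fold (4.39 to 5.38) for Ogg1 KO over WT and 2.65-fold (lower bound 2.34) for DKO over Mutyh KO. G530011O06Rik, which lies within the Mid1 gene in GRCm38, differed little in reads, with 511 in WT and 655 in the library labelled Ogg1 KO. Its coverage was 99.2% and 97.61% in the libraries labelled Ogg1 KO and DKO, and 66.18% and 53.49% in the other two. After Ogg1 it had the largest coverage difference, 33.02 points. Reads of these overlapping genes cannot be told apart without strand. The sex-linked list did not differ by 1.5-fold between WT and the library labelled Ogg1 KO in any of its 5 compared genes, while the Mutyh KO library had 10307 reads of Xist against 14, 23 and 29 in WT, Ogg1 KO and DKO.

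Many of the other genes far above WT were also high in Mutyh KO and lay between in DKO. For 1500015O10Rik (Ecrg4 in RefSeq), a secreted peptide precursor, WT had 38 reads and the library labelled Ogg1 KO 330, with 368 for Mutyh KO and 188 for DKO. The WT library was the low one, and the fold was 9.24 (6.59 to 13.3). Slc4a2, an exchanger of chloride and bicarbonate, had 681, 1670, 1714 and 1124 reads in the same order, a fold of 2.61 (2.39 to 2.86). Trpm3, a cation channel, had 1312, 2723, 3406 and 2625. Rdh5, a retinol dehydrogenase, had 56, 177, 307 and 118, and Pcolce, which enhances the trimming of procollagen, 111, 329, 433 and 289. Ccdc135 (Drc7), a part of motile cilia, had 118, 426, 564 and 302. Ltc4s, the synthase of leukotriene C4, had 34 reads in WT and 125 in the library labelled Ogg1 KO, with 85 and 60 in the others, a fold of 3.91 (2.66 to 5.90). In 21 of the 33 higher genes the DKO level lay between WT and both single knockouts. The 33 genes were chosen for a higher level in Ogg1 KO than in WT, which fixes part of that order. The share of all genes with that order was not counted. The choroid plexus list had the same order, at 0.102%, 0.635%, 0.680% and 0.356% of reads. So did 1110059M19Rik, which is Prr32 of that list in RefSeq, with 15, 106, 109 and 48 reads. The expression of the higher genes in choroid plexus was not measured here, and the part of that tissue in their values was not tested.

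The remaining 12 higher genes had other orders. Malat1, a long noncoding RNA of nuclear speckles, was the most abundant, with 18756 reads in WT and 36451, 37851 and 54443 in the library labelled Ogg1 KO, Mutyh KO and DKO. WT was below all 3 knockouts, and the fold for Ogg1 KO was 2.07 (2.03 to 2.11). Zbed6, a transcription factor derived from a transposon whose gene lies within an intron of Zc3h11a, had 257 reads in WT and 681, 630 and 734 in the others, a fold of 2.82 (2.44 to 3.27). Igsf9b, an adhesion protein of inhibitory synapses, had 81 reads in WT and 231, 227 and 246. WT was the lowest library for each of these 3 genes. Bcl7c, a subunit of chromatin remodelling complexes, had 32, 80, 43 and 50.

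Apart from the beta-globin gene Beta-s, at a log2 ratio of 1.05, other abundant genes outside the lists were higher by less. Abundant here means a mean of 30 RPKM or more. Gm20594 had 3090 reads in WT and 5032 in the library labelled Ogg1 KO, with 2705 and 2873 in Mutyh KO and DKO, so that library stood above the other 3. Nrsn1, a membrane protein of neurons, had 4123, 5809, 3782 and 4339 reads, a log2 ratio of 0.58, and was also highest in that library. Cdr1 had 628, 1077, 1463 and 2146 reads, with WT the lowest.

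Several abundant RNAs were lowest in the library labelled Ogg1 KO. Rn7sk, the small nuclear RNA that restrains transcription elongation, had 39 reads there and 182, 299 and 345 in WT, Mutyh KO and DKO, and was at 0.228-fold the WT value (0.157 to 0.324). Rn18s, the 18S ribosomal RNA, had 10434 reads there against 37564, 68029 and 71723, and Rn28s1 49314 against 95108, 166015 and 197531. For all 3 RNAs WT itself lay below Mutyh KO and DKO. The ribosomal RNA share of the libraries was likewise lowest in the library labelled Ogg1 KO, at 0.351%, and what moved with it in the Rn7sk value was not tested.

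Zbtb20, a zinc finger factor required for the CA1 field, had 1719 reads in the library labelled Ogg1 KO and 3472, 2716 and 3096 in WT, Mutyh KO and DKO. That was 0.527-fold (0.497 to 0.558) the WT value, while DKO to Mutyh KO stood at a log2 ratio of 0.10. Grin2b, an NMDA receptor subunit, had 1159 reads there against 2309, 2335 and 3232. Xkr6 had 92 against 229, 132 and 201, and Bok, a Bcl-2 family protein, 413 against 778, 535 and 720. Bend6, which acts in Notch signalling, had 1001 reads against 1665, 1747 and 1348, and Bex2 1131 against 1848, 1674 and 1882. In each of these 6 genes the library labelled Ogg1 KO was the lowest of the 4. Lcn2, an iron-binding protein of the acute phase, had 57 reads in WT and 3 in the library labelled Ogg1 KO, with 21 and 7 in the others. Car3, a carbonic anhydrase of muscle and fat, had 50, 11, 33 and 40. The heart and skeletal muscle list was lower in 17 of 21 genes and higher in 4. The part of such tissue in the Car3 value was not tested.

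DKO against Mutyh KO shares no library with Ogg1 KO against WT and also sets Ogg1-/- against intact Ogg1. However, the Mutyh KO library differs in its sex-linked reads, with Xist high there as given above. Of the 5 compared sex-linked genes 4 were higher and 1 lower in DKO than in Mutyh KO, with a median of 1.14. The part of sex in this second comparison was not tested. In it 12 genes (0.091%) passed 2-fold upward and 28 (0.212%) downward. Of the 101 genes at least 2-fold different between Ogg1 KO and WT, 29 had the same direction in DKO against Mutyh KO, against 46.5% over all genes, and 14 were at least 2-fold different the opposite way. Outside the lists 18 of 48 had the same direction and 5 were at least 2-fold different in both: Camk1, Hcrt, Snord32a, Mid1 and Mir680-2. Hcrt, the orexin precursor of the lateral hypothalamus, had 16 reads in WT and 2 in the library labelled Ogg1 KO, with 62 in Mutyh KO and 3 in DKO, so the Mutyh KO library stood apart, and Hcrt passed the filter on low values through that library, at 6.19 RPKM against 1.51, 0.201 and 0.282 in WT, Ogg1 KO and DKO. Of its list of hypothalamic and pituitary markers 4 of 23 were compared, 1 higher and 3 lower. Snord32a had at most 4 reads and Mir680-2 at most 10 in any library.

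At 1.5-fold, 158 genes outside the lists (1.21%) were higher and 68 (0.52%) lower, and 11 of these 226 passed 1.5-fold in the same direction in DKO against Mutyh KO. In the latter comparison 0.197% of all genes passed it upward and 1.15% downward. Gm7120 (Tmem267) had 590 and 584 reads in WT and Mutyh KO, and 261 and 382 in the libraries labelled Ogg1 KO and DKO. Agxt2l1 (Etnppl), an enzyme of astrocytes that breaks down phosphoethanolamine, had 334 and 295 against 192 and 187. A230065H16Rik (Lbhd2) had 54 and 47 against 28 and 22. In each of these 3 genes both libraries labelled as lacking Ogg1 were below both others. Besides the 5 genes above, the others were Lcn2 and the short RNA genes Snord96a and Mir1188, both with at most 5 reads in any library.

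**Figure D4:**
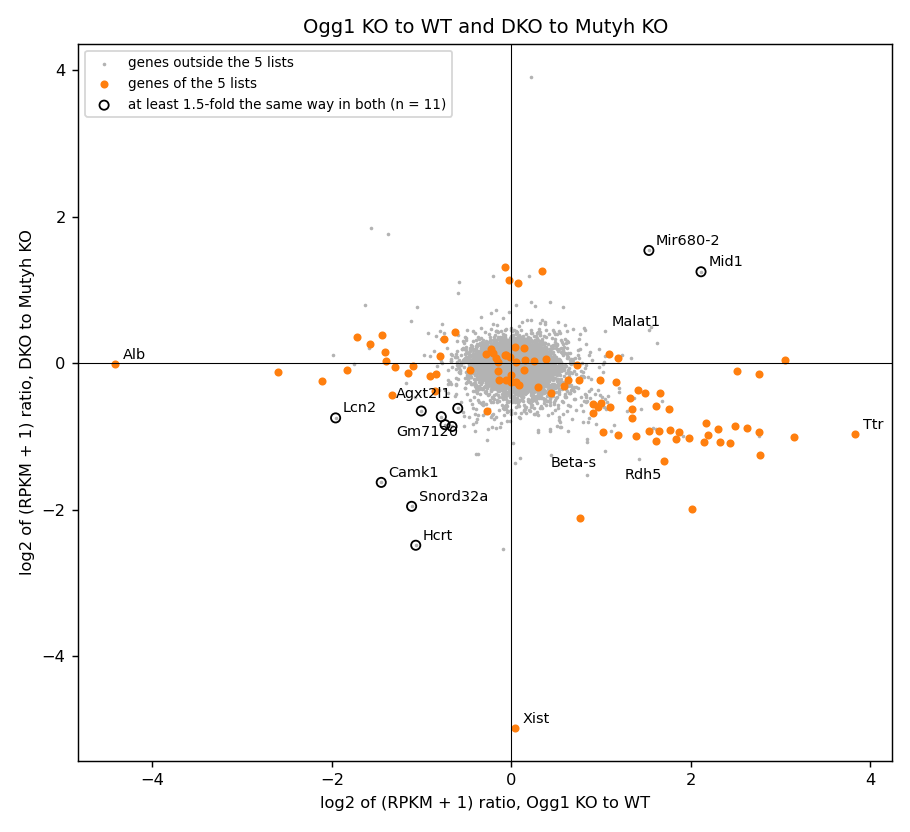
Log2 ratio of Ogg1 KO to WT against that of DKO to Mutyh KO, 1 point per gene, with genes of the 5 lists in orange. Open circles mark the 11 genes at least 1.5-fold different the same way in both, among them Mid1 at 2.12 and 1.25 and Camk1 at -1.45 and -1.63.

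Among protein folding genes, several groups lay mostly below WT, while the J-domain co-chaperones (Dnaj) were near all genes, with 18 higher, 22 lower and a median of -0.02. Heat shock proteins of the cytosol bind unfolded proteins and are induced by heat and other stress. Their list also holds Hspd1 and Hspe1 of mitochondria. Of its 30 compared genes 26 were lower, 23 with intervals below 1, with a median of -0.20 against 0.02 over all genes. Over all genes 45.4% were lower, and 37.5% had intervals excluding 1 either way, from 21.1% to 76.5% by level class. The inducible Hsp70 gene Hspa1b had 240 reads in WT and 108, 86 and 99 in the library labelled Ogg1 KO, Mutyh KO and DKO, and its near copy Hspa1a 130, 77, 69 and 91. Counting could split reads between these 2 copies. Fkbp4, a partner of Hsp90, had 2163, 1497, 1549 and 1498 reads, and the constitutive Hsp70 gene Hspa8 42445, 33518, 33991 and 35277. In all 4 genes WT was above the 3 knockouts. The list took 0.789% of reads in WT and between 0.683% and 0.685% in the knockouts. Against the same WT library its medians were -0.17 in Mutyh KO and -0.21 in DKO, and DKO to Mutyh KO, which shares no library with the comparison made here, had a median of -0.02. Of the 7 compared subunits of the chaperonin ring, which folds actin and tubulin, 6 were lower, led by Cct4 at -0.23.

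Chaperones of the endoplasmic reticulum were lower in 24 of 32 cases, 17 with intervals below 1, with a median of -0.15. Over all genes 45.4% were lower, and 37.5% had intervals excluding 1 either way. Hspa5, the Hsp70 of the endoplasmic reticulum, had 5631 reads in WT and 3523, 3812 and 3869 in the library labelled Ogg1 KO, Mutyh KO and DKO. Sdf2l1 had 181, 97, 116 and 102 reads and Hyou1 3039, 1969, 2226 and 2486. The WT library was again the highest of the 4 in all 3 genes. Creld2 stood at -0.49, Pdia6, a disulfide isomerase, at -0.35 and Hsp90b1 at -0.13.

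Members of this list are known targets of the unfolded protein response through the endoplasmic reticulum stress element, so the promoters were searched for it. The letters CCAAT and CCACG, with a run of 9 bases of any kind between them, were looked for on both strands in the 250 bases before each gene's start, in RefSeq promoters of GRCm38.p6. They stood in 10 of the 27 chaperone genes with a promoter entry (37%) and in 0.153% of the 10442 compared genes with one, and in 0.113% of all 32851 promoters. The matches in 4 of the 10 are shown with the bases around them, the motif in capitals, because Hspa5 is the defining member of the list and the others show the element on either strand or more than once.
Hspa5, chr2:34771990-34772078, plus strand: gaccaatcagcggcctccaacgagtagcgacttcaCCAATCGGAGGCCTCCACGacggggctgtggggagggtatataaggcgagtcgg
Creld2, chr15:88819485-88819573, plus strand: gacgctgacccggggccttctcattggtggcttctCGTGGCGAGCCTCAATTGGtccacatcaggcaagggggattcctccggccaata
Pdia6, chr12:17266456-17266544, plus strand: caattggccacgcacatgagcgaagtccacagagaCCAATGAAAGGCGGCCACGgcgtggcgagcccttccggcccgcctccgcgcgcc
Hsp90b1, chr10:86705498-86705691, minus strand: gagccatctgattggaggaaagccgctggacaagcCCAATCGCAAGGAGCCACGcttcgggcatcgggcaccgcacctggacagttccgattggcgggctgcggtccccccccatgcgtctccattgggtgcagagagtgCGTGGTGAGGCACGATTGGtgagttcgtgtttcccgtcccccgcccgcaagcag
The 10 chaperone genes with the letters had a median log2 ratio of -0.16, 9 of them lower, and the 17 without a median of -0.14, 11 of them lower. A match describes the letters and not a site in use. The heat shock element was searched in the same way as the exact blocks GAA, TTC and GAA, each 2 bases apart. Imperfect elements were not counted. It stood in 2 of the 24 genes of the heat shock list with a promoter entry, and in 0.45% of compared genes. The 2 were Hspd1 and Hspe1, which encode proteins of mitochondria. Hspd1 stood at -0.30 and Hspe1 at 0.09.

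**Figure D5:**
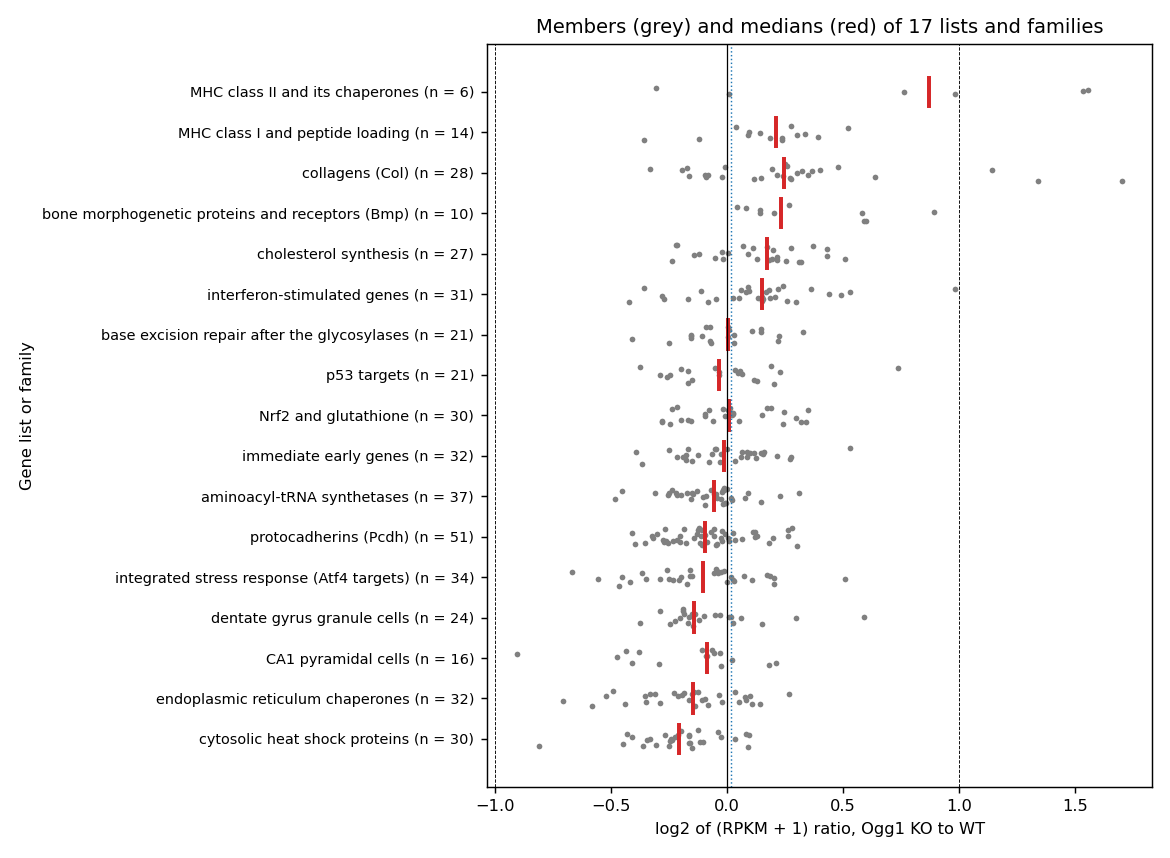
Log2 ratios of Ogg1 KO to WT for the members of 17 gene lists and families (grey points, vertical scatter without meaning) with their medians (red bars). The blue dotted line is the median of all genes, 0.02, and dashed lines are 2-fold. MHC class II lies highest at 0.87 and cytosolic heat shock proteins lowest at -0.20.

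Atf4 targets and glucocorticoid-responsive genes were also mostly lower in the library labelled Ogg1 KO, where 45.4% of all genes were lower. The lists of p53 targets and of Nrf2 and glutathione were not, with medians of -0.03 and 0.01. Targets of Atf4, the factor of the integrated stress response, were lower in 24 of 34 cases with a median of -0.10. Stc2, a secreted glycoprotein, had 58, 23, 40 and 29 reads in WT, Ogg1 KO, Mutyh KO and DKO, and Mthfd2, a folate enzyme of mitochondria, 119, 65, 90 and 115. Cebpb ran the other way at 113, 162, 99 and 98. Of the aminoacyl-tRNA synthetases, which load amino acids on tRNA and include Atf4 targets, 30 of 37 were lower, though by a median of only -0.05. Mars, the methionine enzyme, had 1050 reads in WT and 707, 919 and 981 in the others, with the library labelled Ogg1 KO lowest. Glucocorticoid-responsive genes were lower in 16 of 26 cases, 12 with intervals below 1, with a median of -0.15. Intervals excluded 1 either way in 37.5% of all genes. Plin4, a lipid droplet coat protein, had 191, 96, 200 and 147 reads and Zbtb16 2136, 1536, 1812 and 2144. Crh, the stress hormone precursor, ran the other way at 21, 36, 24 and 21. Immediate early genes, the first response to neuronal activity, had a median of -0.01, with 16 of 32 higher.

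Cholesterol synthesis genes stood on the other side. Of 27 enzymes and regulators 19 were higher, 14 with intervals above 1 and 1 below, with a median of 0.17 and none past 1.5-fold. Over all genes 54.6% were higher, and 37.5% had intervals excluding 1 either way. Acat2, which joins acetyl groups at the start of the pathway, had 262 reads in WT and 366 in the library labelled Ogg1 KO, with 215 and 282 in the others. Nsdhl, a late sterol enzyme, had 350, 457, 358 and 393, Mvd 183, 243, 201 and 198, and Idi1 702, 867, 648 and 731. The library labelled Ogg1 KO was the highest of the 4 in each. In Mutyh KO and DKO the list medians to the same WT library were -0.04 and 0.05.

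MHC class II molecules present peptides to helper T cells and are made by few cells of a healthy brain. Of 6 genes compared 5 were higher, with a median of 0.87. Cd74, the invariant chain that escorts them, had 72 reads in WT and 246, 176 and 274 in the library labelled Ogg1 KO, Mutyh KO and DKO. H2-Aa had 18, 84, 73 and 114 reads, H2-Eb1 19, 63, 61 and 78, and H2-Ab1 35, 70, 59 and 89. WT was the lowest library for all 4 of these, and the fold for Cd74 was 3.64 (2.79 to 4.80). The peptide exchange subunits H2-DMa and H2-DMb1 stood at -0.31 and 0.01. Class I genes were higher in 12 of 14 cases with a median of 0.21, among them H2-K1 with 313, 435, 436 and 521 reads. H2 genes share sequence, and counting could split reads among them. Interferon-stimulated genes were higher in 23 of 31 cases with a median of 0.15, but 7 had intervals above 1 and 1 below, a smaller share than the 37.5% of all genes. Microglia markers had a median of -0.01 (11 higher, 13 lower), and their list took 0.068% of reads in WT and 0.067% in the library labelled Ogg1 KO. Meningeal markers were higher in 20 of 25 cases, at 0.0991% and 0.149% of reads, and blood markers in 5 of 5 compared. Igf2, Igfbp2 and Slc13a4 are on both the meningeal and the choroid plexus list. Igf2 alone had 1797 reads in WT and 5430 in the library labelled Ogg1 KO. The 22 meningeal genes outside the 5 lists had a median of 0.34. The part of meninges and blood in the MHC values was not tested.

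The promoters of H2-Aa and H2-Eb1 hold the Y box, a part of the conserved module of class II promoters that the factor NF-Y binds. They are shown because H2-Aa and H2-Eb1 were the class II genes with a match, among those with a promoter entry. Their log2 ratios were 1.53 and 0.98. CTGATTGG, searched on both strands in the same window, stood in 2 of the 4 class II genes with an entry, in 6.04% of compared genes and in 3.83% of all promoters. The letters are in capitals, and the coordinates are of GRCm38.p6.
H2-Aa, chr17:34287832-34287909, minus strand: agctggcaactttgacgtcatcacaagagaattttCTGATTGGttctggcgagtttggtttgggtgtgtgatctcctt
H2-Eb1, chr17:34305770-34305847, plus strand: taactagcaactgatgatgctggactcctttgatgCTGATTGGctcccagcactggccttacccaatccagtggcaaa
Such a short motif occurs in many promoters, and a match describes the letters only.

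Markers of hippocampal neurons differed by small amounts. For the labelled tissue, Prox1 and Calb1 of dentate granule cells and Fibcd1 of CA1 had at least 1175 reads in both libraries. Of 24 genes of dentate granule cells 17 were lower, 11 with intervals below 1, with a median of -0.14. Over all genes 45.4% were lower, and 37.5% had intervals excluding 1 either way, from 21.1% to 76.5% by level class. C1ql2, a synaptic protein of mossy fibres, had 1849 reads in WT and 1333 in the library labelled Ogg1 KO, with 1938 and 1632 in the others. Bmp7, which the meninges and choroid plexus also express, ran the other way at 127, 197, 267 and 270. CA1 pyramidal cell genes were lower in 13 of 16 cases, 7 with intervals below 1, with a median of -0.09 and Zbtb20 the 1 member past 1.5-fold. Fibcd1 had 3854, 2658, 2874 and 3623 reads. In whole tissue, fewer cells of a type and less RNA per cell cannot be told apart. CA2 and CA3 genes had a median of 0.00 (13 of 26 higher), interneuron genes 0.05, astrocytes -0.01, and myelin 0.05 over 30 genes.

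By family, ratios were close to 0. Of 86 families with at least 5 compared genes, 74 had medians within 0.1, and 49 held no gene past 1.5-fold. Zinc finger genes named Zfp had a median of 0.00 over 315 genes, 156 higher and 159 lower, and ribosomal proteins 0.05 over 96. Solute carriers stood at 0.03 over 253 genes and potassium channels at 0.01 over 70, which turned to -0.01 and -0.03 under scaling to the median ratio. The proteasome stood at -0.01 over 47 genes and complex I subunits named Nduf at 0.00 over 37. Protocadherins, adhesion proteins that label single neurons, were lower in 36 of 51 cases with a median of -0.09, and the clustered ones share exons among which counting could split reads. Adenylate cyclases, which make cyclic AMP, were lower in 6 of 9 cases with a median of -0.12, led by Adcy9 and Adcy3 at -0.30 and -0.29. Receptors of adrenaline and dopamine had a median of -0.21 with 4 of 9 higher, or 0.048 without the filter on low values, and Drd5 had 369, 239, 265 and 321 reads.

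Among the 6 families with medians of at least 0.1 were collagens, bone morphogenetic proteins and insulin-like growth factors. Other matrix and growth factor families lay nearer 0. Laminins stood at 0.04, integrins at 0.06, fibroblast growth factors at 0.02 and Wnt and Frizzled at -0.01. Collagens were higher in 19 of 28 cases with a median of 0.25, and Col8a2, of basement membranes, had 86 reads in WT and 268, 505 and 263 in the library labelled Ogg1 KO, Mutyh KO and DKO. All 10 compared bone morphogenetic protein and receptor genes were higher, with a median of 0.24, where 54.6% of all genes were higher. Bmp6 had 138, 276, 369 and 297 reads, the type II receptor Bmpr2 508, 754, 955 and 1121, and Bmp4 30, 59, 79 and 99. WT was the lowest library for each. Insulin-like growth factor genes had a median of 0.20 over 12, or 0.14 without listed choroid plexus genes. The choroid plexus and meningeal lists were higher in the same libraries, at 0.635% against 0.102% and 0.149% against 0.0991% of reads. Igf2, Igfbp2 and Slc13a4 are on both lists and enter both shares. The part of these lists in these families was not tested.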

How the data were processed

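Hippocampal RNA of C57BL/6 mice was sequenced on an Illumina instrument, with 1 library each for WT, Ogg1 KO, Mutyh KO and DKO. Total RNA came from an RNeasy kit, per the labels' protocols. Per the submitters' processing notes the build was mm9; the aligner, counting program, annotation and strand setting are not given in the sources used here. The authors deposited, per the file headers, a count of unique reads per gene, the gene length, the coverage as a percent of the length (a meaning read from the column's name), and RPKM. RPKM values deposited by the authors used the sum of listed reads as library total. Entries with no symbol held 0.0179% to 0.0195% of reads.

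From these, genes with a mean of at least 1 RPKM were compared on log2 of RPKM plus 1, and folds were ratios of reads per library total with exact conditional (Clopper-Pearson) 95% intervals. The calculation was tested on simulated data. Python 3.11.15, numpy 2.4.6, pandas 2.3.3 and scipy 1.17.1 were used. Names, gene order and promoters came from RefSeq's GRCm38 tables, which matched 13143 compared genes.

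Named genes were Ogg1, Nudt1 and the 5 nearest compared genes on each side of Ogg1, the 15 highest and 15 lowest outside the 5 lists with intervals excluding 1, the 3 highest and lowest in each of 5 level classes, the 3 members furthest from 0 in each list or family whose median was at least 0.1 from 0 or that held a 2-fold gene, and the 10 largest coverage differences. Other members of lists were named for their known roles after their values were seen. The members and the 38 lists were chosen with earlier results of these data known. Alternatives were the pseudocount, the filter and the scaling.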

Additional observations from a re-analysis of the deposited data

Results flagged for a closer look

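In 4 genes outside the lists that were at least 2-fold different between Ogg1 KO and WT, DKO differed from Mutyh KO by at least 2-fold in the opposite direction. The difference between the comparisons was not tested, since each has 1 library a side. Beta-s (Hbb-bs), a beta-globin gene with near copies among which counting could split reads, had 408, 803, 1348 and 616 reads in WT, Ogg1 KO, Mutyh KO and DKO, and its log2 ratios were 1.05 for Ogg1 KO to WT and -1.20 for DKO to Mutyh KO. Rdh5 stood at 1.42 and -1.31. Mir3074-1 stood at -1.56 and 1.84 and Rnu1a1, a small nuclear RNA, at -1.38 and 1.77, on no more than 7 reads in any library.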

How the results depend on the processing

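Without replicates no library could be left out, and no threshold measures variation between animals. No paired analysis was possible because each genotype has 1 library. Counts of genes at least 2-fold higher and lower, 73 and 28 over all genes and 33 and 15 outside the lists, moved mainly with the treatment of weak genes. A pseudocount of 3 RPKM gave 42 and 8, and 12 and 5. A minimum mean of 5 RPKM gave 40 and 6, and 16 and 5. Outside the lists, 25 genes were lower with a pseudocount of 0.5 RPKM and 24 without a filter. The share of the 2-fold genes that were higher was 72.3%, against 84% with a pseudocount of 3 RPKM, 87% with a minimum of 5 RPKM, 80.2% with the mean of the 2 compared libraries, 68.4% with a pseudocount of 0.5 RPKM, 67.7% without a filter and 70.5% with median scaling. Scaling to the median ratio gave 67 and 28, and moved the median of all genes from 0.02 to -0.01, so list medians near 0 carry no direction. Of 315 list and family medians under alternatives, 281 moved by less than 0.1 and 15 turned sign. Of these, 10 were medians within 0.0404 of 0, 5 of them under median scaling. The other 5 were acute phase genes at 0.00616 and adrenergic and dopamine receptors at 0.0482 without a filter, intestine at -0.20 and small nucleolar RNA genes at 0.31 with a minimum of 5 RPKM, and microRNA genes at 0.21 with the mean taken over the 2 compared libraries. Of 1098 values for named genes 2 turned sign, Setd5 and Arpc4 under median scaling. The cause was not tested.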

Other observations

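Coverage differed by 20 points or more for further genes whose reads lay within 1.5-fold. Manf, a secreted factor of the endoplasmic reticulum, had 859 reads in WT and 585 in the library labelled Ogg1 KO, and a coverage difference of -21.26 points. Erg, an endothelial transcription factor, had 60 and 76 reads and a difference of 26.28 points. Leng9, Insc, Fdx1 and S100a6 stood at -24.44, -22.7, -22.65 and -21 points on 53 to 99 reads in either library.

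Among cell cycle genes, Cdkn1c, an inhibitor of cyclin-dependent kinases, had 99 reads in WT and 323, 215 and 163 in the library labelled Ogg1 KO, Mutyh KO and DKO. Cdkn1c is also on the choroid plexus list, all of whose 47 compared genes were higher, and the part of that tissue in its value was not tested. The cell cycle list of 22 genes had a median of 0.01. Clock genes had a median of 0.04, with 12 of 21 higher. Genes that host small nucleolar RNAs were higher in 7 of 9 cases with a median of 0.23, and Snhg11, a neuronal noncoding RNA, had 43017, 47522, 43530 and 43387 reads.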
